A study of Mus musculus with 6 samples.

Results

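Peritubular myoid and interstitial mesenchyme genes were followed in the testis of WT and H3t deletion mice. The set was chosen by gene symbol and holds 31 of the 54100 genes in the count table: 16 contractile genes, from Acta2 to Cspg4, and 15 mesenchyme genes, from Nr2f2 to Gsn. RNA came from testis cryosections of 3 WT and 3 H3t deletion mice, 1 library each, and the question was how the transcriptome differs when spermatogenesis is disrupted. H3t is a histone H3 variant gene of the testis, listed in the table as H3f4. Both groups carry no other allele or agent in the labels, and the age, the strain and how the deletion was made were not stated there. Beyond a mouse number in each title, nothing in the labels marks the samples of a group as separate animals. The p-values thus reflect only how much these samples vary, part of which may be technical.

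Peritubular myoid cells are flat, smooth muscle-like cells that wrap each seminiferous tubule. They contract to move fluid and sperm along the tubule, lay down its basement membrane together with Sertoli cells, and secrete growth factors for spermatogonia. Contraction in such cells starts with calcium, which lets myosin light chain kinase phosphorylate the myosin light chain, so that myosin pulls on smooth muscle actin. Between the tubules lies the interstitium, with Leydig cells, vessels wrapped by pericytes and vascular smooth muscle, macrophages, and fibroblast-like mesenchyme that secretes collagen and proteoglycans. Contractile genes are shared between myoid cells, vascular smooth muscle and pericytes, and bulk RNA does not separate these cells. In bulk samples, fewer cells of a type and less RNA per cell cannot be told apart.

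Library totals ran from 8037826 to 10702930 counts, and H3f4 had 390, 571 and 356 counts in WT and 0, 0 and 0 in the deletion. The libraries differ in their germ cell RNA: the summed level of 10 spermatid markers lay between 20780 and 22540 CPM (counts relative to library size) in WT and between 10.6 and 68.1 CPM in the deletion. That of 10 spermatocyte markers was 7157 to 7494 CPM and 366 to 423 CPM. Markers of other somatic cells moved with the contractile and mesenchyme genes: 20 of 20 tested Sertoli markers, 14 of 14 Leydig markers and 10 of 10 macrophage markers rose, with a median log2 change of 2.22, 3.16 and 2.58. Among endothelial markers 8 of 12 rose, with a median of 1.39. Most genes differed, and 84.5% of the 17038 genes tested differed at a false discovery rate (FDR) of 0.05 (edgeR, quasi-likelihood test, Benjamini-Hochberg). Of all genes tested, 38.4% rose and 46.1% fell. Changes are therefore given on a pair of scales. The first is the log2 change, deletion minus WT, of CPM scaled by the trimmed mean of M values (TMM), under which the median of all genes was -0.19. The second scales the libraries to an equal mean log2 level of 20 Sertoli genes, so that it gives a gene's level relative to another somatic cell of the tubule, and under it the median of all genes was -2.32.

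Most contractile genes were higher in the deletion on the TMM scale. Of the 16, all of which passed the filter on low counts, 13 rose, Actg2 and Pln fell, and Tagln did not pass the test, where 38.4% of all genes rose and 46.1% fell. Their median log2 change was 1.45, against -0.19 over all genes. The WT and deletion libraries did not overlap for 15 of the 16, while 85.9% of all genes tested did not overlap. At an equal Sertoli level the picture differed: 0 of the 16 rose, 12 fell, and Tpm1, Lmod1, Smtn and Cspg4 did not pass, with a median of -0.68. Every estimate on that scale was below 0, so 0 were higher at an unadjusted p under 0.05 as well, also with DESeq2 on the same scaling. Over all genes, 4.43% rose and 76.2% fell on that scale.

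**Figure D1:**
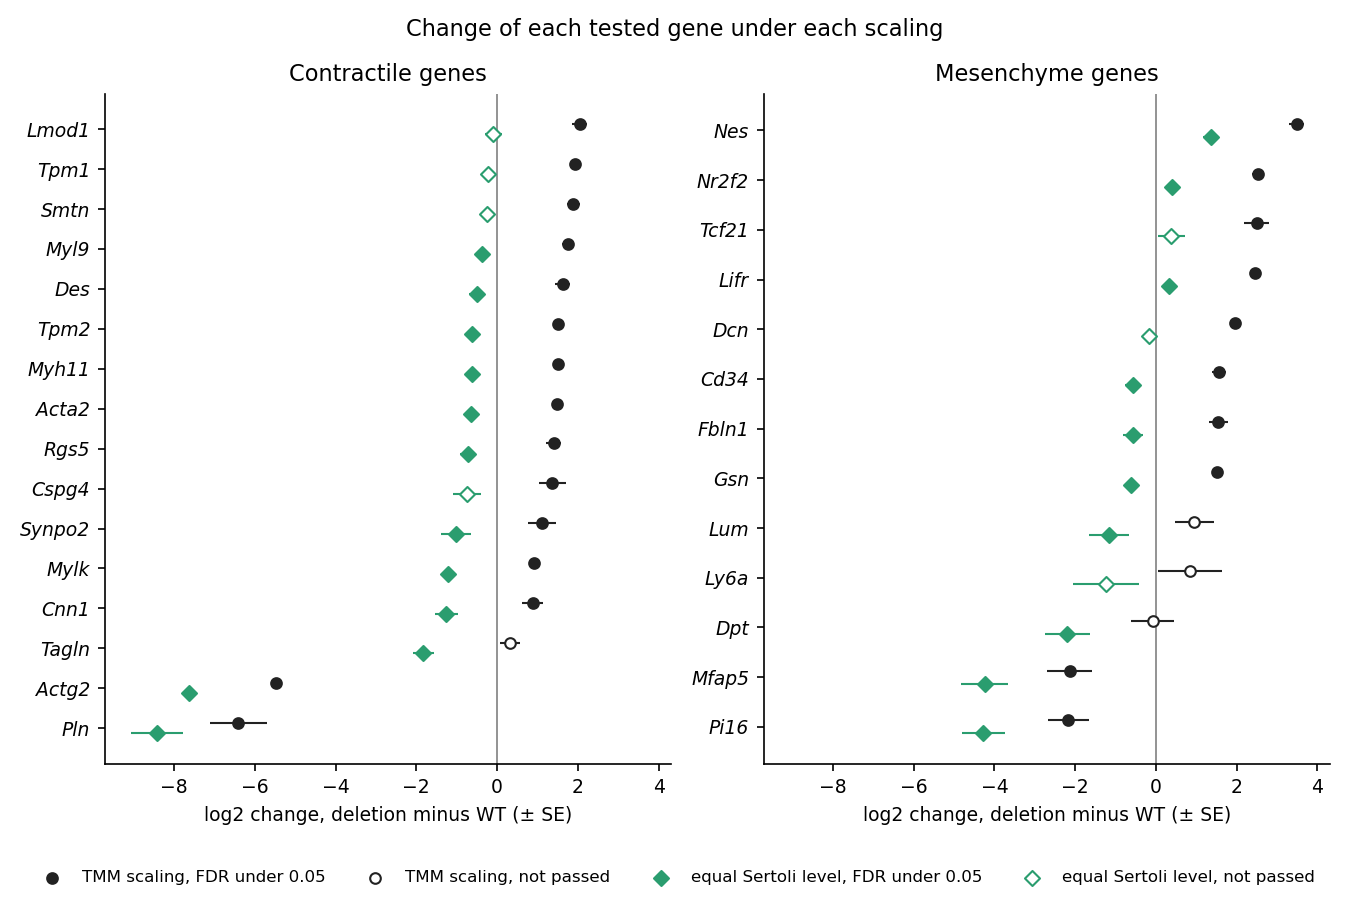
Log2 change of each tested contractile gene (left) and mesenchyme gene (right), deletion minus WT, with bars of 1 SE, under TMM scaling (black circles) and at an equal Sertoli level (green diamonds), filled where FDR is under 0.05. Actg2 at -5.49 and Pln at -6.41 sit far to the left of the other contractile genes, and Nes at 3.48 is the highest of the mesenchyme genes on the TMM scale.

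Of the genes of the thick and thin filaments, Acta2, Myh11, Tpm1 and Tpm2 rose. Acta2 (chr19:34241090-34255590, GRCm38), the smooth muscle alpha-actin used as the standard myoid marker, had 331, 506 and 307 counts in WT and 1605, 1607 and 1483 in the deletion. This is 51.0 ± 7.75 against 144 ± 3.24 CPM (mean ± SD, n = 3 each), with the lowest deletion library above the highest WT library. Its log2 change was 1.5 (SE 0.11, adjusted p = 4.09e-09 in edgeR's quasi-likelihood test). Myh11 (chr16:14194535-14291372), the smooth muscle myosin heavy chain, had 648, 1060 and 868 counts in WT and 3595, 3729 and 3337 in the deletion, a log2 change of 1.51 (SE 0.10). The groups were again apart, and at an equal Sertoli level Acta2 and Myh11 were lower by almost the same amount, with log2 changes of -0.64 and -0.62. Tpm1 and Tpm2 encode tropomyosins, which lie along the actin filament and gate its access to myosin. Tpm1 had 251, 289 and 300 counts against 1716, 1543 and 1429 (log2 change 1.92), and Tpm2 had 143, 175 and 156 against 700, 676 and 621 (1.52). Neither overlapped between groups. The ratio of Tpm1 to Tpm2, taken within each library and so free of scaling, was 0.72 to 0.94 on the log2 scale in WT and 1.19 to 1.29 in the deletion.

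Regulators of myosin and of the filament ends rose by unequal amounts. Myl9, the regulatory light chain of smooth muscle myosin, had 125, 257 and 178 counts in WT and 1042, 866 and 821 in the deletion, a log2 change of 1.75 (SE 0.15). Mylk (chr16:34745210-35002420), the kinase that phosphorylates this light chain, had 557, 726 and 632 counts against 1938, 1791 and 1604, a smaller change of 0.92 (SE 0.09). Both were apart between the groups. Relative to Sertoli genes the kinase fell by 1.21 and its substrate by 0.37. Lmod1, a leiomodin that nucleates actin filaments in smooth muscle, had 57, 49 and 59 counts against 375, 313 and 323 and had the highest log2 change of the contractile genes, 2.05. Smtn, the smoothelin gene of contractile smooth muscle, had 62, 82 and 65 counts against 415, 343 and 373 (1.88). Synpo2, which encodes an actin-binding protein of muscle, had 28, 31 and 13 counts against 93, 60 and 76 (1.12). All 3 kept the groups apart. Des, the muscle intermediate filament desmin, rose as well, from 52, 73 and 66 to 309, 329 and 232 counts (1.63).

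Cnn1 and Tagln, related actin-binding genes, had the lowest log2 changes apart from Actg2 and Pln. Cnn1, the actin-binding calponin of smooth muscle, had 40, 49 and 33 counts in WT and 99, 140 and 92 in the deletion, with a log2 change of 0.88 (SE 0.26, adjusted p = 0.00516 in edgeR's quasi-likelihood test). Tagln (chr9:45929619-45936058), the transgelin gene that is otherwise among the most used smooth muscle markers, had 68, 88 and 46 counts against 116, 150 and 102. In CPM the groups overlapped, as WT spanned 6.46 to 10.5 and the deletion 9.69 to 13.5, and the log2 change was 0.31 (SE 0.24, adjusted p = 0.235). On the Sertoli scale Tagln fell by 1.82, the most of the contractile genes after Actg2 and Pln. With upper-quartile scaling or none, Tagln passed as higher, at 0.86 and 0.95. Exons of Pcsk7 and Gm48529 overlap those of Tagln on the other strand. Their log2 changes were -0.49 and -0.48. The sources used here do not state the strand setting of the counting, and how reads were shared between these genes was not tested.

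Actg2 and Pln went the other way from the rest, by a wide margin. Actg2 (chr6:83512905-83536265), the gamma-actin of visceral smooth muscle, had 2366, 3063 and 2478 counts in WT and 90, 74 and 94 in the deletion. This is 357 ± 9.58 CPM against 7.95 ± 1.16 CPM, and the log2 change was -5.49 (SE 0.12, adjusted p = 2.65e-15 in edgeR). Actg2 transcripts share 0% of their 50-base words with any other gene. Read length and the treatment of reads with several matches were not stated, and miscounted actin reads were not tested. Pln (chr10:53337667-53345987), phospholamban, which inhibits the calcium pump of the sarcoplasmic reticulum, had 45, 38 and 56 counts in WT and 2, 0 and 0 in the deletion. Pooled over libraries the level was 102-fold higher in WT, with an exact 95% counting interval of 27.7 to 849 that covers counting error only. The fitted log2 change was -6.41 (SE 0.71, adjusted p = 5.15e-07 in edgeR), and without deletion replicate 1, the only deletion library with a count, it was -8.80. Pln is overlapped on the other strand by exons of Cep85l, which fell from 4300, 5746 and 4897 counts to 347, 303 and 284 (log2 change -4.55, adjusted p = 3.67e-15), and by Gm47644 (-1.53). The part of such reads in the Pln counts was not tested. Germ cell markers moved in the same direction as both genes, with 10 of 10 spermatid and 10 of 10 spermatocyte markers lower and a median log2 change of -9.46 and -3.25. Their part in the change of Actg2 and Pln was not tested.

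Within each library, Actg2 exceeded Acta2 in WT and was far below it in the deletion. The log2 count ratio of Actg2 to Acta2 was 2.84, 2.60 and 3.01 in WT and -4.15, -4.43 and -3.97 in the deletion. Pln against Atp2a2, the calcium pump it inhibits, was -4.93, -5.56 and -4.72 in WT and -9.49, -11.7 and -11.8 in the deletion, where the values of replicates 2 and 3 rest on 0 counts of Pln. Neither pair overlapped between groups. With 3 libraries against 3 the exact permutation test (two-sided) cannot go below p = 0.1, the value both reached, or 0.163 after adjustment over the 13 pairs. Atp2a2 itself had a log2 change of -0.38 under TMM scaling and of 0.26 with no scaling factor, so its direction is set by the scaling.

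Per kilobase of exon, which allows levels to be compared between genes, Actg2 was the highest of the 31 genes in WT and the 18th in the deletion. Its mean fell from 229 to 5.11 CPM per kb. Gsn, Acta2, Myl9 and Myh11 followed in WT at 25.1, 23.2, 21.3 and 15.2 CPM per kb, with SDs of 1.40, 3.53, 4.47 and 1.66. Gsn, Acta2 and Myl9 were not apart in WT beyond the larger SD of each pair. In the deletion Myl9 and Gsn came first at 72.2 ± 8.76 and 71.9 ± 5.47, not apart beyond their SD, then Acta2 at 65.7 ± 1.48, Myh11 at 43.1 ± 1.28 and Lifr at 39.4 ± 2.02. Pln went from the 12th place to the last.

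**Figure D2:**
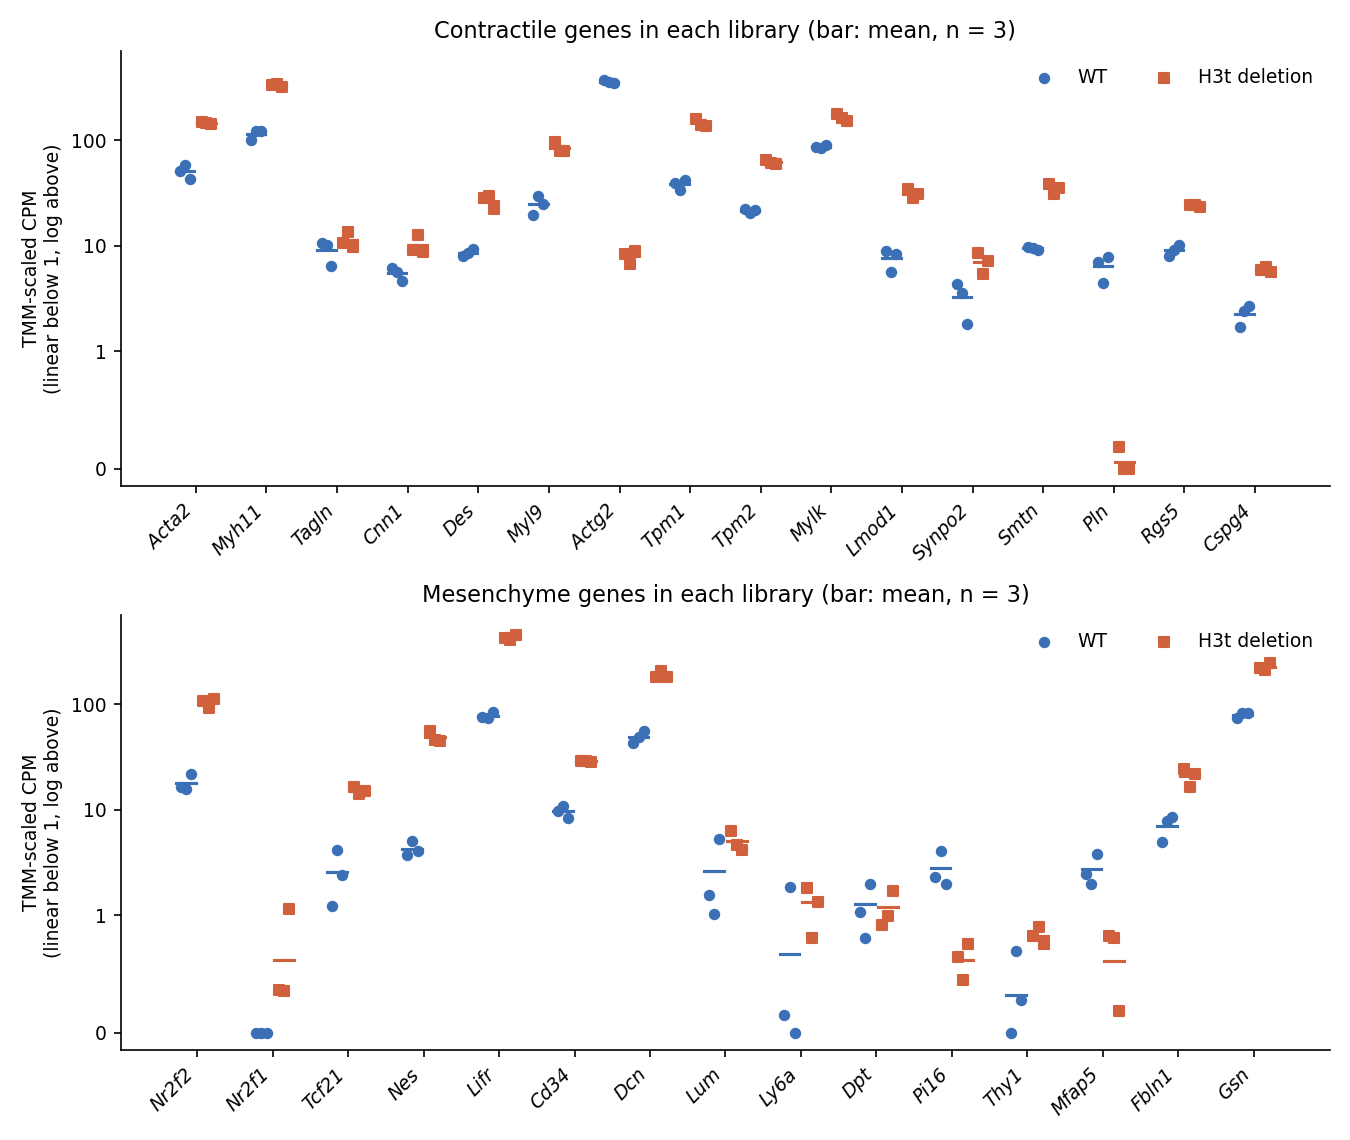
CPM (TMM-scaled, axis linear below 1 and log above, short bars at the group mean) of the contractile and mesenchyme genes in each of the 3 WT (blue) and 3 H3t deletion (red) libraries. Deletion libraries lie above WT libraries for most genes, while Actg2 lies between 348 and 367 CPM in WT and between 6.67 and 8.93 CPM in the deletion.

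Genes used as markers of pericytes rose with Acta2. Rgs5, a regulator of G protein signalling abundant in pericytes, had 51, 78 and 73 counts in WT and 267, 269 and 244 in the deletion (log2 change 1.40). Cspg4, the NG2 proteoglycan of pericytes, had 11, 21 and 19 counts against 64, 70 and 59 (1.37). Both were apart between groups, and both log2 ratios to Acta2 overlapped, with a difference of -0.11 for Rgs5 (exact permutation p = 1) and of -0.13 for Cspg4 (p = 0.8, n = 3 each). Such p-values do not show that the ratios are equal. Of 9 other mural cell genes tested 8 rose, among them Mcam (1.68), Ebf1 (2.42) and Abcc9 (2.05), where 38.4% of all genes rose. Ndufa4l2 fell from 63, 77 and 40 counts to 0, 0 and 3, a level 87.9-fold higher in WT by pooled counts (exact 95% interval 29.6 to 430.0). Relative to Sertoli genes Ndufa4l2 fell and the other 8 did not pass.

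Other smooth muscle genes moved as most contractile genes did. Of 18 tested, 15 rose, with a median log2 change of 1.67, where 38.4% of all genes rose. Those with the highest level were Vcl (1.72), the vinculin of actin anchor sites, Cald1 (1.77), caldesmon, and Flna (1.46), which crosslinks actin. Ppp1r14a, an inhibitor of myosin phosphatase, rose by 3.03, and it was the only 1 of the 18 that also rose at an equal Sertoli level (0.91). On that scale 9 of the 18 fell, with a median of -0.46, where 4.43% of all genes rose and 76.2% fell. Of 19 genes that signal contraction or relaxation, 12 rose, against 38.4% of all genes, with a median of 1.77. The receptors Oxtr (3.48) and Avpr1a (3.55), for oxytocin and vasopressin, were higher also at an equal Sertoli level (1.35 and 1.43), as were Edn1, the endothelin ligand, and Gucy1b1, a subunit of the nitric oxide receptor (1.19 and 1.89). These were the only 4 of the 19 that rose there, while 10 fell, with a median of -0.36. The abundant Ppp1r12a (1.04), the targeting subunit of myosin phosphatase, and Rock2 (2.08), a kinase that inhibits that phosphatase, rose under TMM scaling. Agtr1a, an angiotensin receptor, fell from 75, 173 and 152 counts to 0, 19 and 18 (-3.95). Rock1 was at -0.27 under TMM scaling and at 0.37 with no scaling factor, called in opposite directions. 

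Smooth muscle genes are switched on by serum response factor, Srf, with its coactivators of the myocardin family, which binds the CArG box, a short AT-rich element. Of 13 transcription genes tested 9 rose and 4 fell, where 38.4% of all genes rose and 46.1% fell. Myocd, myocardin, had 23, 26 and 4 counts in WT and 76, 79 and 48 in the deletion (log2 change 1.38, adjusted p = 0.0110 in edgeR), with the groups apart. Mrtfb, a related coactivator, rose by 1.03 and Mrtfa fell by 1.57. Klf4, a factor known to oppose the contractile program, fell from 2038, 2485 and 1790 counts to 242, 242 and 251 (-3.66), and Csrp2 fell by 1.34. Spermatid and spermatocyte markers fell as well, with a median log2 change of -9.46 and -3.25. Which cells gave the counts of Mrtfa, Klf4 and Csrp2 was not tested. Srf itself was at -0.50 under TMM scaling and at 0.14, not called, with no scaling factor. Relative to Sertoli genes 5 of the 13 fell and 8 did not pass, where 76.2% of all genes fell.

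Promoters were read from RefSeq (GRCm38.p6, 250 bases before to 50 after each start) for 23 of the 31 genes and searched on both strands for the CArG box, whose 6-base core holds only A and T, and for a form with 1 G or C in that core. The box was in 1.63% of all 32851 promoters and, among 13 contractile promoters, in Myl9, where it began 161 bases before the start. The second form was in 8.50% of all promoters and in Acta2 (84 and 34 bases before the start), Myl9 (99 bases), Gsn and Lifr. The bases before the start are shown for Acta2 (chr19:34255374-34255623, minus strand) and Myl9 (chr2:156775214-156775463, plus strand), which rose and hold a match, and for Pln (chr10:53337436-53337685, plus strand), which fell and holds none. The other 10 contractile promoters searched, of Cnn1, Cspg4, Des, Lmod1, Mylk, Rgs5, Smtn, Synpo2, Tpm1 and Tpm2, hold none either, and all these genes rose. No promoter was available for Actg2, Myh11, Tagln, Dcn, Lum, Ly6a, Mfap5 and Thy1. Pln was thus the only contractile gene searched that fell. Capitals mark the CArG box and its second form.
Acta2: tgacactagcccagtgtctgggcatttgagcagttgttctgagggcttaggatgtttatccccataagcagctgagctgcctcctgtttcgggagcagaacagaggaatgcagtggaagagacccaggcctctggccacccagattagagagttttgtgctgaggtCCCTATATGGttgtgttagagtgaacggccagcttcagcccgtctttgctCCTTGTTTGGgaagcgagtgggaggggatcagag
Myl9: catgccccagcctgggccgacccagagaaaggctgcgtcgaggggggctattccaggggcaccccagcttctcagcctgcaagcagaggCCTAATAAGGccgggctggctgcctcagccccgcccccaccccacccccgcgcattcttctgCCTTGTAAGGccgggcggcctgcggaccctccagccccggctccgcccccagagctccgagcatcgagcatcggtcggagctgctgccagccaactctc
Pln: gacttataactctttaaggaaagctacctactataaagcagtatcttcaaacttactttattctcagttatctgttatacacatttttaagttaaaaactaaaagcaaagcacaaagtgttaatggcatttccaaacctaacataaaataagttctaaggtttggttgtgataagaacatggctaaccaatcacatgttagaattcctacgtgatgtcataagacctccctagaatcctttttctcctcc
A match describes the letters only. The E-box CAGCTG, which overlaps neither form, was in 16.3% of all promoters and in 6 of the 13 contractile promoters (Acta2, Des, Lmod1, Pln, Rgs5 and Tpm2), including that of Pln, which fell. It was also in 7 of 15 mesenchyme promoters, of 5 genes. The cyclic AMP response element TGACGTCA was in 1.79% of all promoters and in 0 of the promoters of the 23 genes searched.

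Among families of the filament proteins, the smooth muscle member did not always move with its paralogs. Of the actins, Actb, the cytoplasmic beta-actin, rose by 0.78, from 142 ± 4.40 to 244 ± 16.9 CPM per kb, and was the highest actin in the deletion. Actg1, the cytoplasmic gamma-actin, was at -0.56 under TMM scaling and at 0.08, not called, with no scaling factor. Acta1 and Actc1, of skeletal and cardiac muscle, were not tested, with 3, 0 and 0 counts of Acta1 in WT and 0, 10 and 2 of Actc1 in the deletion and 0 elsewhere. All 4 tropomyosins rose, Tpm3 by 1.26 and Tpm4 by 2.19. Of the myosin heavy chains, Myh9 rose by 2.36 and Myh10, the other main nonmuscle chain, fell by 3.04, while Myh14 did not pass (-0.13). The log2 ratio of Myh11 to Myh9 spanned 0.92 to 1.16 in WT and 0.08 to 0.39 with the deletion, apart between the groups. Of the light chains, Myl6 (1.06), Myl12a (2.82) and Myl12b (2.93) rose. Myl6b was at -0.58 with overlapping groups (adjusted p = 0.0489 in edgeR), and at 0.05 with no scaling factor.

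**Figure D3:**
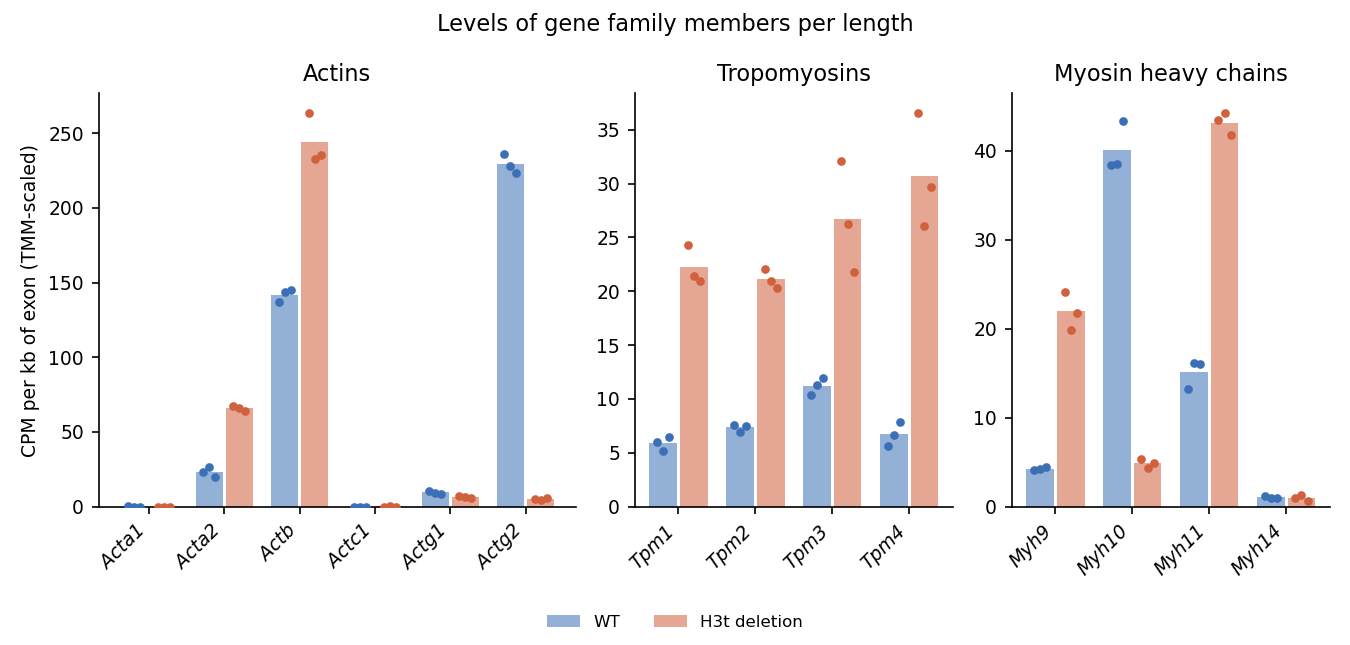
CPM per kb of exon (TMM-scaled, linear axes from 0) of the actins, tropomyosins and myosin heavy chains, with bars at the group mean and points for the 3 libraries of each group. Actg2 drops from 229 to 5.11 and Myh10 from 40.1 to 4.88, while Acta2, Actb, the 4 tropomyosins, Myh9 and Myh11 are higher in the deletion.

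The calponin, transgelin, leiomodin, smoothelin and synaptopodin families split likewise. Cnn2 (1.87), Cnn3 (3.54), Tagln2 (2.32) and Synpo (1.28), relatives of Cnn1, Tagln and Synpo2, rose. Cnn3 was higher also at an equal Sertoli level (1.43), where 7 of the 12 tested genes of these families fell. Smtnl1 fell from 108, 145 and 100 counts to 1, 2 and 7 (-5.63), and Synpo2l fell by 2.82. Smtnl2 did not pass (-0.61). Tagln3, Lmod2 and Lmod3 had at most 8 counts in any library and were not tested.

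Most tested mesenchyme genes were higher on the TMM scale too, with members in each direction. Of 15 genes 13 passed the filter on low counts, and of these 8 rose, Pi16 and Mfap5 fell, and Lum, Ly6a and Dpt did not pass. Over all genes 38.4% rose and 46.1% fell. The median log2 change was 1.55, against -0.19 over all genes. WT and deletion libraries were apart for 10 of the 13, a smaller share than the 85.9% of all genes. At an equal Sertoli level Nr2f2, Nes and Lifr were higher, 7 fell, and Tcf21, Dcn and Ly6a did not pass, where 4.43% of all genes rose and 76.2% fell. The median on that scale was -0.57, against -2.32 over all genes. Nr2f1 and Thy1 were not tested.

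Nes, Nr2f2 and Tcf21 had the highest log2 changes of the tested mesenchyme genes, with Lifr (2.45) close below the last 2. Nr2f2 (chr7:70351944-70366735), COUP-TFII, a nuclear receptor of interstitial and Leydig precursor cells, had 106, 136 and 156 counts in WT and 1173, 1013 and 1180 in the deletion, a log2 change of 2.53 (SE 0.14, adjusted p = 1.16e-10 in edgeR). Tcf21 (chr10:22817281-22820174), a helix-loop-helix factor of gonadal mesenchyme, had 8, 36 and 17 counts against 181, 156 and 157 (2.49, SE 0.32). Nes (chr3:87971078-87980451), the intermediate filament nestin, had 24, 44 and 29 counts against 605, 506 and 476 and rose by 3.48 (SE 0.18, adjusted p = 6.47e-11), from 4.3 ± 0.71 to 48.8 ± 5.85 CPM. None of these overlapped between groups, and Nes rose in every deletion library. Relative to Sertoli genes Nes was still higher, by 1.36 (adjusted p = 1.42e-05 in edgeR). Nr2f1, the paralog of Nr2f2, had 0, 0 and 0 counts against 4, 4 and 12, at least 4.55-fold higher in the deletion against a floor of 3 counts over the WT group (0.135 CPM). B130024G19Rik, which overlaps Nr2f2 on the other strand, had 5, 4 and 3 counts against 66, 55 and 48.

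The cell surface genes ranged widely. Lifr (chr15:7090614-7197489), the receptor for leukemia inhibitory factor, had 482, 638 and 600 counts in WT and 4612, 4486 and 4711 in the deletion, a log2 change of 2.45 (SE 0.09) with groups far apart. Cd34, a sialomucin of endothelium and of interstitial stromal cells, had 63, 94 and 60 counts against 318, 318 and 296 (1.56). Ly6a, the Sca-1 antigen of progenitor cells, had 1, 16 and 0 counts against 20, 9 and 14, with groups that overlapped (0.85, adjusted p = 0.326). WT replicate 2 held nearly all its WT counts, and without it the change was 3.91 (adjusted p = 0.00481). Of Ly6a, 19.0% of the 50-base words are shared with other genes, 15% with Ly6c1, so its counts are uncertain. Thy1, a surface glycoprotein of fibroblasts, had 0, 6 and 2 counts against 9, 10 and 8.

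Of the matrix genes Dcn and Fbln1 rose, Lum and Dpt did not pass and Mfap5 fell. Dcn (chr10:97479609-97518143), decorin, a proteoglycan that binds collagen fibrils, had 275, 420 and 400 counts in WT and 1990, 2294 and 1914 in the deletion, a log2 change of 1.95 (SE 0.11), and was at -0.18, not called, at an equal Sertoli level. Gsn, gelsolin, which severs actin filaments and also exists as a secreted form, had 478, 708 and 581 counts against 2417, 2361 and 2591 (1.52). Fbln1, a fibulin of basement membranes, had 32, 67 and 61 counts against 266, 184 and 229 (1.55). These 3 were apart between groups. Lum, lumican, had 10, 9 and 38 counts against 69, 52 and 44 and did not pass (0.95, adjusted p = 0.0811). WT replicate 3 was the high one, and without it Lum was called at 1.94 (adjusted p = 0.00165). Dpt, dermatopontin, was low throughout, with 7, 7 and 14 counts against 10, 11 and 18 (-0.08, adjusted p = 0.885), and it was above 0, uncalled, at 0.55 with no scaling factor.

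Pi16 and Mfap5, genes known from adventitial fibroblasts around vessels and organ capsules, fell. Pi16 had 15, 35 and 14 counts in WT and 7, 5 and 8 in the deletion (log2 change -2.17, SE 0.51, adjusted p = 0.00100 in edgeR). Mfap5, a microfibril protein, had 16, 17 and 27 counts against 9, 9 and 2 (-2.13, SE 0.55, adjusted p = 0.00226). All deletion libraries lay below all WT libraries for both. Relative to genes of the same kind within a library, the log2 ratio of Mfap5 to Fbln1 was -0.98, -1.95 and -1.16 in WT and -4.81, -4.28 and -6.52 in the deletion, and that of Pi16 to Dpt was 1.05, 2.24 and 0.00 against -0.48, -1.06 and -1.12. Both pairs were apart between groups. Pi16 is overlapped by exons of AC162182.1 on the other strand. How much capsule, vessel wall or fat a section held was not recorded in the labels, and markers of such tissue varied. Of 6 adipocyte genes 2 were tested, and Plin1 rose (2.73) while Adipoq fell (-2.56), from 18, 38 and 16 counts to 3, 0 and 14. Fabp4, not tested, had 4, 2 and 0 counts in WT and 101, 4 and 98 in the deletion. The summed level of all 6 was 5.56 to 6.67 CPM in WT and 7.03 to 34.4 CPM in the deletion. Of 8 mesothelial genes, 2 of the 5 tested rose, Lrrn4 (2.72) and Bnc1 (1.55), and 1 fell, Muc16 (-3.84). The summed level of all 8 was 81.9 to 102 CPM against 39.6 to 48.8 CPM, and Muc16 had the highest level of the called genes. The sum thus went against the direction of Lrrn4 and Bnc1. Upk3b, not tested, had 1, 2 and 2 counts against 4, 44 and 13. Of the epididymal genes, Lcn5, Lcn8, Lcn9, Crisp1 and Gpx5 were at 0 counts in all libraries. The 2 epididymal genes tested, Cst8 and Rnase10, fell, with a summed level of all 9 of 98.2 to 130 CPM against 8.83 to 13.2 CPM. Nearly all of this sum was Cst8, at 95.4 to 127 CPM in WT and 8.17 to 13.2 CPM in the deletion. Germ cell markers fell as well, and which cells gave the Cst8 counts was not tested. Of skeletal muscle genes Pvalb was at 0, 1 of 3 tested fell (Myh1, -1.38), and the summed level of all 9 was 7.02 to 10.1 CPM against 3.87 to 4.84 CPM. The part of these tissues in the results was not tested.

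Several calls at an equal Sertoli level lay near the threshold and turned on single libraries in edgeR's quasi-likelihood test. Nr2f2, at 0.40 (adjusted p = 0.0292), did not pass without WT replicate 1 (0.39, adjusted p = 0.0588), WT replicate 2 (0.29, adjusted p = 0.142), deletion replicate 1 (0.35, adjusted p = 0.0730) or deletion replicate 3 (0.34, adjusted p = 0.0985). Lifr, at 0.32 (adjusted p = 0.0149), did not pass without WT replicate 2 (0.27, adjusted p = 0.0730) or deletion replicate 3 (0.28, adjusted p = 0.0587). Tcf21, at 0.38 (adjusted p = 0.301), passed as higher without WT replicate 2 (0.91, adjusted p = 0.0351). Nes thus was the 1 member called higher on this scale in all 6 of these fits. Among the genes called lower, Myl9 (-0.37) was at -0.39 to -0.23 and uncalled without WT replicate 2 or 3 or deletion replicate 2 or 3, and Des (-0.50) at -0.53 to -0.38 without any 1 WT replicate or deletion replicate 3. Synpo2 (-1.02) was uncalled at -0.96 to -0.72 without WT replicate 1 or 2 or deletion replicate 2. Fbln1 (-0.57) was uncalled at -0.59 to -0.42 without WT replicate 2 or 3 or deletion replicate 2 or 3. Lum (-1.16) was at -0.17 without WT replicate 3 and at -1.09 and -1.04 without deletion replicate 2 or 3, uncalled in each. Cspg4 (-0.75) passed as lower without WT replicate 1 (-0.86, adjusted p = 0.0481).

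Further mesenchyme genes rose together. Of 20 tested, Cd34 among them, 18 rose and 0 fell in edgeR's quasi-likelihood test under TMM scaling, where no estimate was below 0, and 0 fell with DESeq2 size factors. The median log2 change was 1.49, and 38.4% of all genes rose under TMM scaling. Col1a2 (1.45) and Col3a1 (1.36), fibrillar collagen chains, and Pdgfra (3.0), a growth factor receptor of interstitial progenitors, had the highest levels. Pdgfra, Igf1, Ptch1 and Serping1 were also higher at an equal Sertoli level, at 0.87, 0.50, 0.57 and 0.58, and 9 of the 20 fell there. Over all genes 4.43% rose and 76.2% fell on that scale. Of 13 genes for factors that act between myoid or interstitial cells and germ cells, 10 rose under TMM scaling, with a median of 2.24. Kitl (2.93), the ligand of the spermatogonial receptor Kit, Igf1 (2.63) and Cyp26b1 (2.05), which degrades retinoic acid, had the highest levels. Pdgfa fell by 1.07. Gdnf, a factor for spermatogonial stem cells that myoid cells also make, had 5, 10 and 18 counts against 57, 70 and 92 (2.17). Csf1, Cxcl12, Kitl, Tgfb2, Igf1 and Ptch1 were higher at an equal Sertoli level, and 3 of the 13 fell there.

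Paralogs of the matrix genes followed the majority with a few exceptions. Of the small leucine-rich proteoglycans, Bgn (1.29), Ogn (1.90), Fmod (1.49), Aspn (1.22), Prelp (1.55) and Omd (2.52) rose with Dcn, Aspn not passing with median-of-ratios factors (adjusted p = 0.0856 in edgeR), while Epyc fell from 244, 309 and 361 counts to 68, 79 and 86 (-2.53). Kera had 1 count in all. In the fibulin and microfibril group, Fbln2 (1.30), Fbln5 (2.13), Efemp1 (2.85), Efemp2 (2.46), Fbn1 (1.28), Mfap3 (1.74), Eln (1.25) and Ltbp1 (2.57) rose. Fbn2 fell with Mfap5, from 526, 688 and 594 counts to 157, 161 and 196 (-2.36), and Mfap4 did not pass (0.70). Fbln7 and Mfap2 were not tested. Of the gelsolin family, Svil (1.81), Capg (1.38) and Flii (1.64) rose with Gsn, and Capg did not pass with median-of-ratios factors (adjusted p = 0.0528 in edgeR). Scin, an actin-severing relative, went from 1, 1 and 0 counts to 148, 117 and 138, a level 138-fold higher in the deletion by pooled counts (exact 95% interval 37.8 to 1140). Avil and Vil1 had at most 7 counts in a library and were not tested.

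The balance of the mesenchyme and contractile genes depended on how it was taken. The mean log2 CPM of the 13 tested mesenchyme genes minus that of the 16 contractile genes was -1.58, -1.18 and -1.18 in WT and -0.66, -0.76 and -0.61 in the deletion, a difference of 0.64 with groups apart. With medians in place of means the difference between the groups was 0.56. Without Actg2 and Pln, an alternative chosen after seeing the data, it was -0.18. That alternative kept Pi16 and Mfap5, the mesenchyme genes that fell. With Actg2 and Pln left out, the contractile score was 2.03 higher in the deletion and the mesenchyme score 1.85 higher. Each single score was taken on CPM with no TMM factor, so it is not on the scale of the TMM changes. Set against Sox9, a Sertoli transcription factor, the log2 ratio of Acta2 was 0.61 ± 0.17 in WT and -0.44 ± 0.11 in the deletion, and that of Dcn was 0.56 ± 0.33 and -0.05 ± 0.14 (mean ± SD, n = 3 each). Both were apart between groups, with an exact permutation p of 0.1. Sox9 rose more than the Sertoli list did, by 2.56 against a median of 2.22, and is among the 3 of 20 Sertoli genes higher at an equal Sertoli level. Against the whole list Acta2 was at -0.64 and Dcn at -0.18, the latter not called. In all, 8 of the 13 ratios did not overlap, each with an adjusted p of 0.163 in that permutation test. Of single genes tested 85.9% did not overlap, and the share among other gene pairs was not computed. Lum to Dcn, Thy1 to Dcn and Nr2f1 to Nr2f2 overlapped.

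**Figure D4:**
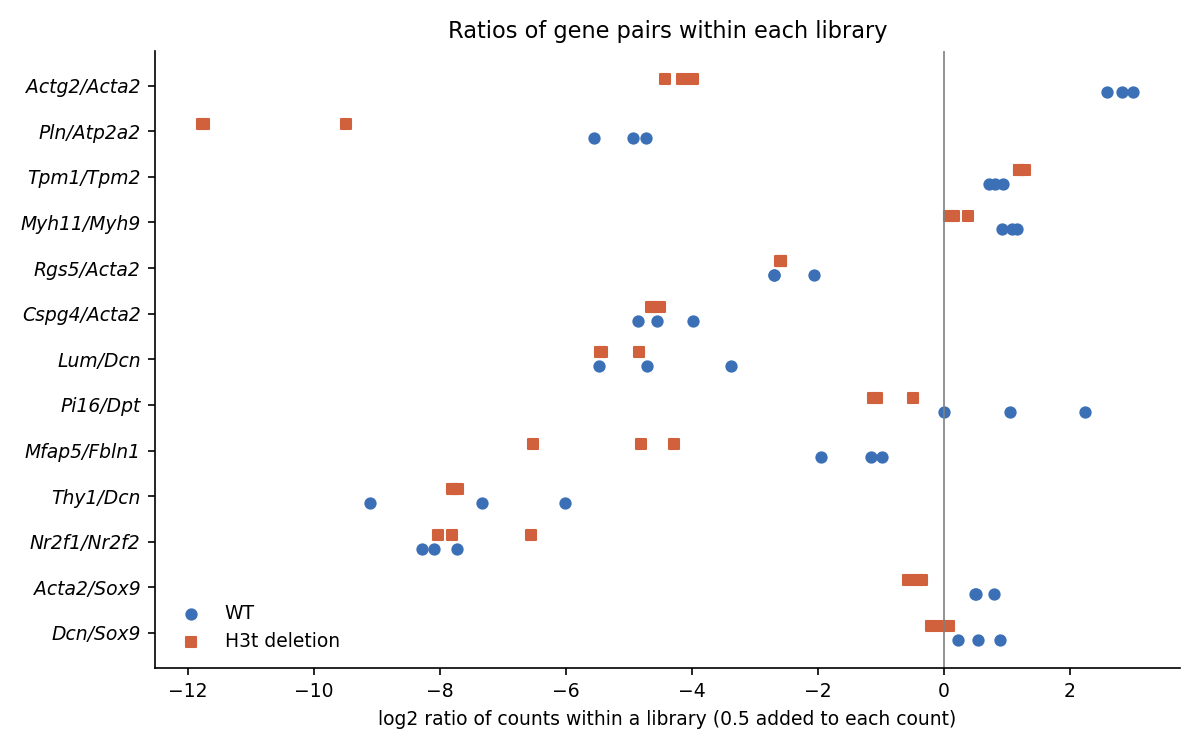
Log2 ratio of the counts of 2 genes within each library, with 0.5 added to each count, for the 13 gene pairs in 3 WT (blue circles) and 3 H3t deletion (red squares) libraries. The ratio of Actg2 to Acta2 lies from 2.60 to 3.01 in WT and from -4.43 to -3.97 in the deletion, while those of Rgs5 and Cspg4 to Acta2 overlap.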

How the data were processed

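Total RNA from testis cryosections of 3 WT and 3 H3t deletion mice was turned into libraries by a SMART-Seq kit that keeps strand, per the labels. The authors deposited raw counts of reads per Ensembl gene. Trim Galore, HISAT2, featureCounts and GRCm38 are named per the submitters' processing notes, and the versions, annotation and strand setting used are not stated in those sources. The table has 54100 genes, 0 rows without a gene name and 0 unused columns, and all 54100 IDs are in GENCODE M21, which gave coordinates and exon lengths. One count was worth 0.0901 to 0.155 TMM-scaled CPM.

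The analysis used edgeR 4.0.16 in R 4.3.3 (filterByExpr, TMM, quasi-likelihood test, Benjamini-Hochberg over all 17038 genes tested, FDR 0.05). The fit was also run on simulated data in which few genes changed. That run cannot test the scaling of these libraries, where 84.5% of genes differed. The biological coefficient of variation was 13.1%. Within groups the chi-square per degree of freedom between libraries was 4.75 to 7.32, so no 2 libraries were the same within counting noise and each was counted once. This does not show that they are separate animals. TMM factors spanned 0.794 to 0.806 (WT) and 1.21 to 1.27 (deletion). Under the second scaling the mean log2 CPM of 20 Sertoli genes is equal in all libraries. DESeq2 1.42.0, limma 3.58.1 voom, other scalings, filters and thresholds, a replicate block and leaving out each library were alternatives. The members and lists were chosen with earlier results of these data known. All members are named, and from other lists up to 3 called genes of the highest mean CPM and every called gene against its list's majority. Every paralog with a count is also named. One gene that the rule names is not reported here. Myocd, Ppp1r14a, Gdnf, the genes higher at an equal Sertoli level and single markers of other tissues were named after their values were seen.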

Additional observations from a re-analysis of the deposited data

How the results depend on the processing

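Under TMM and its alternatives, 12 to 14 contractile genes rose and 2 fell, and 8 to 10 mesenchyme genes rose and 2 fell. Under the second scaling 0 and 3 rose, and 12 and 7 fell. Scaling moved the medians of the contractile and mesenchyme genes: 1.28 and 1.37 with DESeq2 median-of-ratios factors, 1.99 and 2.08 with upper-quartile factors, 2.09 and 2.18 with none, and 1.28 and 1.38 in DESeq2. Leaving out 1 library gave 1.35 to 1.47 and 1.44 to 1.65. With the replicate block of adjacent mouse numbers, which is no stated pairing, the mesenchyme median was 1.72, 13 contractile and 9 mesenchyme genes rose, and Ly6a at an equal Sertoli level turned to 2.03. At an equal Leydig level the medians were -1.55 and -1.45, and Nr2f2 (-0.46), Tcf21 (-0.50) and Lifr (-0.54) turned negative. With no filter the contractile median at an equal Sertoli level was -0.57 and Lmod1 was at 0.02. Reversals among uncalled values were Dpt at 0.46 (upper-quartile) and 0.55 (no scaling), and at 0.32, 0.09 and 0.05 without WT replicate 3, deletion replicate 1 or deletion replicate 2 (range with 1 library left out, -0.41 to 0.32). At an equal Sertoli level Lmod1 was at 0.09 without WT replicate 1 (range -0.29 to 0.09) and Ly6a at 1.95 without WT replicate 2 (range -1.79 to 1.95). The ratios of Rgs5 and Cspg4 to Acta2 ranged from -0.21 to 0.10 and from -0.33 to 0.11 and turned positive without WT replicate 3, and that of Thy1 to Dcn from -1.10 to 0.45, positive without WT replicate 2. The deletion minus WT difference of the mesenchyme minus contractile score was 0.56 with medians in place of means and -0.18 without Actg2 and Pln. The cause was not tested for any of these. Of the values for single genes, 686 kept direction and call, 38 lost a call, 18 gained one and 12 reversed. Nr2f1, Thy1, Ly6a, Dpt, Pi16 and Mfap5 had at most 35 counts in any library, which limits their precision.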
